A study of Rattus norvegicus with 288 samples.

Results

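The conjugation enzymes of rat heart, kidney and liver were examined after infusion of oxaliplatin, a platinum anticancer drug, and after oral dosing with sunitinib or sorafenib, which inhibit receptor tyrosine kinases. Members were all genes with a numbered Ugt or Sult symbol, or a Gst symbol of the alpha, kappa, mu, omega, pi or theta class (UDP-glucuronosyltransferases, sulfotransferases and glutathione S-transferases), which the array annotation names as the single gene of a probe set. The zeta-class gene Gstz1 was counted with the other conjugation enzymes. This rule on symbols gave 42 genes of the 14218 genes named in that way. Of these, 38 exceeded a log2 signal of 6 on at least 4 arrays of a tissue in at least 1 tissue, and 4 did so in none (Gsta3l1, Sult1d1, Sult2a1 and Sult6b2). Among the genes tested, 20 of 11317 in heart were members, 27 of 12310 in kidney and 36 of 11619 in liver.

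The animals were 96 male Sprague-Dawley rats, 8 weeks old, each with an indwelling femoral vein cannula. Each rat received an intravenous infusion over 30 min of either oxaliplatin (15 mg/kg) or D5W, a dextrose solution that served as its vehicle, and then an oral dose of sunitinib (5 mg/kg), its vehicle water, sorafenib (25 mg/kg) or its vehicle, termed F68 after the Pluronic it contains. Rats of each of the 8 treatments were killed at 1, 6 or 24 h, 4 at each time, and heart apex, left kidney and liver of each rat were hybridised singly, giving 288 arrays in 72 groups. The water and sunitinib groups were dosed on another day than the F68 and sorafenib groups, so that vehicle and dosing day cannot be told apart where F68 is set against water. The oxaliplatin comparison averaged water and F68 rats (8 against 8), and each oral drug was compared with its own vehicle after D5W or after oxaliplatin (4 against 4). All values are RMA log2 signals, and a difference of 1 on this scale is a doubling. A gene was called where limma gave a Benjamini-Hochberg adjusted p under 0.05 over all genes tested in that tissue, and errors given with a difference are standard errors of that fit.

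Conjugation attaches a large polar group to a drug, hormone or bile acid so that it can be carried out of the cell and excreted. Ugt enzymes, held in the endoplasmic reticulum, transfer glucuronic acid from UDP-glucuronic acid, Sult enzymes transfer sulfate from PAPS, and Gst enzymes join glutathione to reactive electrophiles. Liver and the proximal tubule of the kidney are the classical sites of this chemistry, and several of the genes are known targets of the regulators Nrf2, CAR, PXR and the Ah receptor. Platinum drugs react with thiols, and glutathione conjugation is one of the routes studied for them.

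The promoters of 3 members called after oxaliplatin are shown: Gstp1 (called in all 3 tissues), Gsta1 (in heart) and Ugt2b7 (in kidney). They were picked by hand, and other called members are not shown. Each run holds 300 bases that end shortly after the annotated start, from RefSeq on GRCr8. They lie at chr1:210769656-210769955 on the minus strand (Gstp1), chr9:31216483-31216782 on the minus strand (Gsta1) and chr14:21251285-21251584 on the plus strand (Ugt2b7). Capitals mark matches to 4 short motifs searched on both strands: TGACNNNGC, the core of the antioxidant response element, GCGTG, the core of the xenobiotic response element, GTTAAT, an HNF1 element, and AGGTCA, a nuclear receptor element.
Gstp1: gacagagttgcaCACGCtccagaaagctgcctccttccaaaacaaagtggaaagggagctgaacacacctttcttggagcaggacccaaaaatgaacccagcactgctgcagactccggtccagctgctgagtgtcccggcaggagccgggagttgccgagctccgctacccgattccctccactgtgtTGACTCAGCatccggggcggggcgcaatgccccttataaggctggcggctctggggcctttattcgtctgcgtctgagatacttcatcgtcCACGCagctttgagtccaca
Gsta1: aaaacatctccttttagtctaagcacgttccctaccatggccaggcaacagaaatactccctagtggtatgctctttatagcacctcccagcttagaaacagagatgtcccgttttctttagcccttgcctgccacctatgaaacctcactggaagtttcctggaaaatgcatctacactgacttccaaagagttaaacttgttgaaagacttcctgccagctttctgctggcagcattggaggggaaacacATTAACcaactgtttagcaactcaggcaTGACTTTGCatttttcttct
Ugt2b7: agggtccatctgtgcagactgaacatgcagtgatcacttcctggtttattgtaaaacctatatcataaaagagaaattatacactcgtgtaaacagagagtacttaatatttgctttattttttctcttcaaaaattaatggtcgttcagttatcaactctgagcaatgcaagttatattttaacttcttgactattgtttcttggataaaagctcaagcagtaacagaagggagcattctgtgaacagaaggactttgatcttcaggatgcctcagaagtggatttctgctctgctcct

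In the Gstp1 window TGACTCAGC began at position -61 and CACGC at positions -238 and 30 from the start site. The Gsta1 window held ATTAAC at position 2 and TGACTTTGC at position 30, and the Ugt2b7 window held none of the 4 motifs. The window of Sult1a1, which had the largest oxaliplatin difference among heart members and is not shown, also held none. A start was found in RefSeq for 37 of the 42 members, which together had 40 promoters. TGACNNNGC was in 5 of those 40 (12.5%), against 12.1% of all 33469 promoters of the same length. GCGTG was in 10 (25% against 29.7%), GTTAAT in 6 (15% against 7.45%) and AGGTCA in 3 (7.5% against 16.2%).

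Mean levels of 9 or 10 defining markers per tissue matched the label on all but 2 arrays. These were 24 h D5W then sorafenib replicate 1 of liver, with kidney markers at 12.66 and liver markers at 6.72, and 24 h D5W then sorafenib replicate 4 of kidney, with liver markers at 14.62 and kidney markers at 7.67. Both were left out, which left 3 rats in those groups, and 286 arrays were used. In heart the 24 h D5W then water group stood apart in the beta-actin 3′ minus 5′ probe difference, an RNA quality sign (median 0.752, against 0.24 to 0.469 in 22 other groups and 0.684 in 6 h D5W then sorafenib). The 24 h arrays carry another title code than the 1 and 6 h arrays in each tissue, so that time and code cannot be told apart there. In whole-tissue RNA, fewer cells of a type and less RNA per cell cannot be told apart.

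Most conjugation enzymes were highest in liver or kidney. In the 24 rats per tissue that had received only vehicles, the highest mean level lay in liver for 21 of the 38 members, in kidney for 15 and in heart for 2. The rats of the highest tissue lay above all rats of the others for 15, 7 and 2 members, respectively, or 24 in all. Over all 12845 genes, 48.2% had such a tissue, 7.85% in liver, 32.7% in kidney and 7.60% in heart. Whether the tissues were normalised together is not given in the sources used here, and the comparison across tissues is given without a test. Array medians were 7.32 to 7.81 in kidney, against 6.63 to 6.69 in heart and 6.66 to 6.78 in liver. Kidney levels, and the 32.7% of genes highest there, are to be read with that difference.

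**Figure D1:**
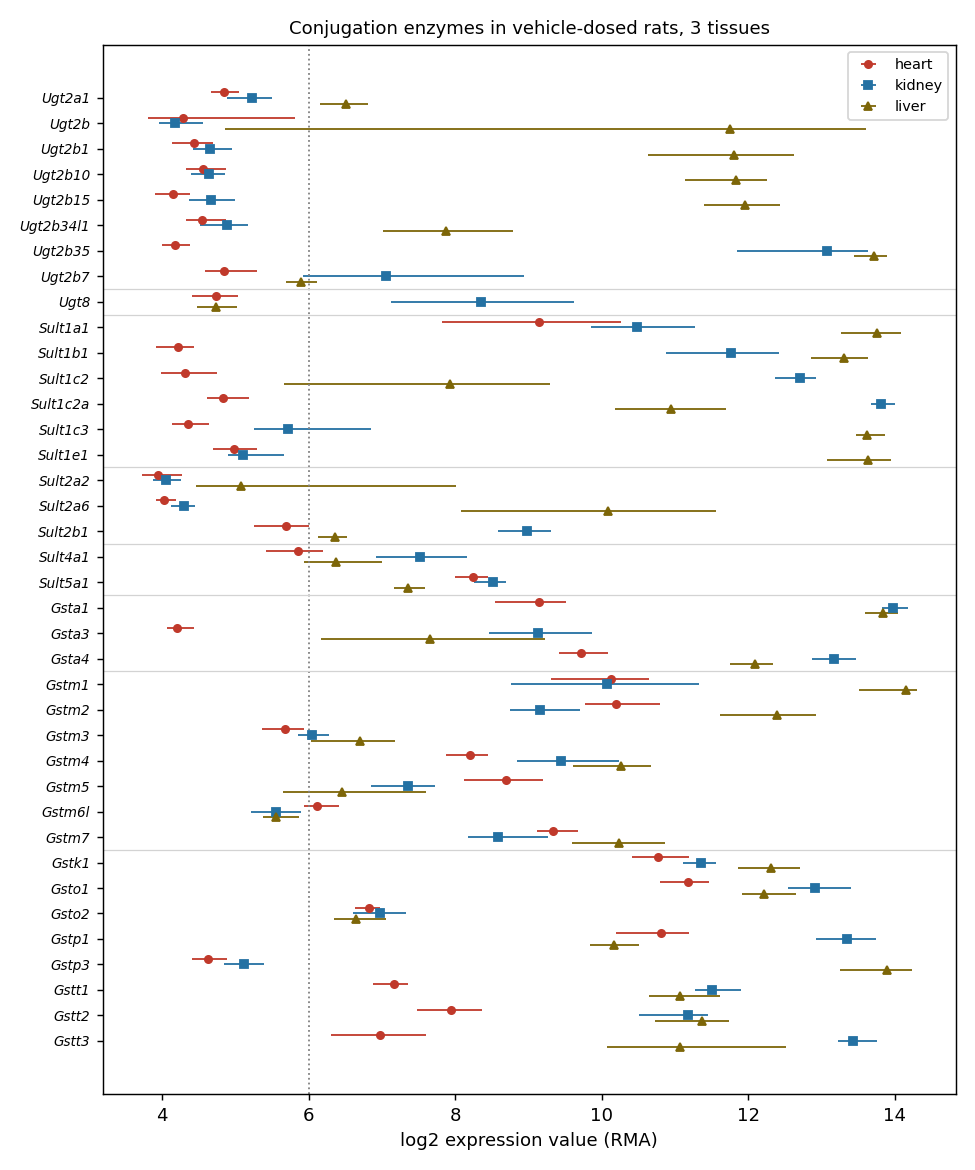
Mean log2 signal of each of the 38 members in the 24 vehicle rats of each tissue (points) with the lowest and highest rat (bars), on 1 probe set per gene, and the filter at 6 as a dotted line. Gstp3, Sult1e1 and Sult1c3 were high in liver, Sult1c2 in kidney, and Gstm5 and Gstm6l were highest in heart.

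Among the glucuronosyltransferases, all 8 measured Ugt2a and Ugt2b genes passed the filter in liver, 2 in kidney (Ugt2b35 and Ugt2b7) and 0 in heart. Ugt2b35 was high in both kidney (13.08) and liver (13.72) and at 4.17 in heart. Ugt2b1 (11.80), Ugt2b10 (11.83), Ugt2b15 (11.95) and Ugt2b34l1 (7.87) passed in liver alone, where their levels in kidney and heart were 4.15 to 4.88. Ugt2b7 went the other way, at 7.06 in kidney and 5.90 in liver. Ugt8, which adds galactose to ceramide for myelin lipids, passed in kidney alone (8.35, against 4.73 and 4.74 elsewhere). The 8 Ugt1a genes share their probe sets and were given no gene of their own. Their shared probe sets stood at 13.47 and 12.98 in kidney, 13.49 and 13.04 in liver, and 8.03 and 7.15 in heart.

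Of the 14 sulfotransferases, 3 passed in liver alone and 4 in all tissues. Sult1e1, the estrogen sulfotransferase, was at 13.63 in liver and 5.10 in kidney, and Sult1c3 at 13.62 and 5.72. Sult2a6, a hydroxysteroid and bile acid sulfotransferase, passed in liver alone (10.08 against 4.03 in heart). Sult1b1, which sulfates thyroid hormones and phenols, was at 13.31 in liver, 11.76 in kidney and 4.22 in heart. Sult1c2 (12.71) and Sult1c2a (13.81) were highest in kidney and at 7.93 and 10.94 in liver. Sult1a1, the phenol sulfotransferase, was the only Sult1 gene of 7 that passed in heart (9.14, against 10.48 in kidney and 13.76 in liver).

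The glutathione S-transferases were the widest spread. The mu-class gene Gstm5 was highest in heart (8.70, against 7.35 in kidney and 6.45 in liver), and Gstm6l passed there alone (6.11). Gstm1 was at 14.15 in liver and near 10.1 in the other organs (10.13 in heart and 10.07 in kidney). Gstp3 was at 13.89 in liver, 5.12 in kidney and 4.62 in heart, while the other pi-class gene, Gstp1, was highest in kidney (13.35, against 10.81 in heart and 10.17 in liver). The theta-class gene Gstt3 was also highest in kidney (13.43, against 11.07 in liver and 6.98 in heart). The alpha-class gene Gsta1 was at 13.97 in kidney, 13.84 in liver and 9.14 in heart.

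After oxaliplatin, 4 kidney members rose or fell at 24 h, 3 upward and 1 downward, and 8 heart members rose. In kidney, limma called 0 of 27 members at 1 h, 2 at 6 h and 4 at 24 h, where 9.41%, 20.6% and 7.80% of all genes were called. The members at an unadjusted p under 0.05 numbered 1, 5 and 11, and the median member difference was -0.03, 0.07 and 0.12 against -0.02, 0.01 and 0.01 over all genes. The share of all genes at an unadjusted p under 0.05 was not counted, here or further on. Percentages of all genes are for the adjusted threshold and are no background for the unadjusted counts. In heart it called 0, 0 and 8 of 20 members, with backgrounds of 1.23%, 0.866% and 19.2%. The counts at an unadjusted p under 0.05 were 3, 2 and 8, and at 24 h the median member difference was 0.12 against 0.03 over all genes. In liver it called 0, 2 and 1 of 36 members, against 3.46%, 10.4% and 6.42% of all genes, with 3, 7 and 2 at an unadjusted p under 0.05.

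Ugt2b7, a glucuronosyltransferase of the subfamily that takes steroids, bile acids and many drugs, had the largest oxaliplatin difference of any kidney member called. At 24 h the 8 vehicle-dosed oxaliplatin rats had a lowest level of 7.29, a median of 8.93 and a highest of 9.70, against 5.92, 7.39 and 8.14 in the 8 D5W rats. The upper oxaliplatin rats lay well above all of these D5W rats, while the ranges overlapped. Among drug-dosed D5W rats at 24 h the highest read 9.77. The within-group SD of kidney Ugt2b7 was 0.83, at percentile 99.6 of all kidney genes. The difference was 1.56 ± 0.41 (2.95-fold, adjusted p = 0.0079).

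At 6 h the Ugt2b7 values were 6.91, 7.95 and 9.76 (lowest, median, highest) after oxaliplatin and 6.14, 7.08 and 8.03 after D5W. Again the groups overlapped at the low end. The difference was 1.15 ± 0.41 (2.22-fold, adjusted p = 0.0328), and at 1 h it was -0.29 ± 0.41 (adjusted p = 0.787). In the rats given sunitinib or sorafenib, the same comparison gave 1.26 ± 0.41 at 6 h (adjusted p = 0.0154) and 0.93 ± 0.42 at 24 h (adjusted p = 0.278, with 7 D5W rats). Leaving out any of 6 single arrays took the 6 h call away (adjusted p 0.0539 to 0.117): D5W then F68 replicates 1 and 3, oxaliplatin then F68 replicates 1 and 4, and replicate 2 of each water group. Within single oral vehicles the 6 h difference was 0.59 with water (adjusted p = 0.625) and 1.71 with F68 (adjusted p = 0.0467). At 24 h it was 1.42 and 1.70 (adjusted p = 0.232 and 0.112).

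**Figure D2:**
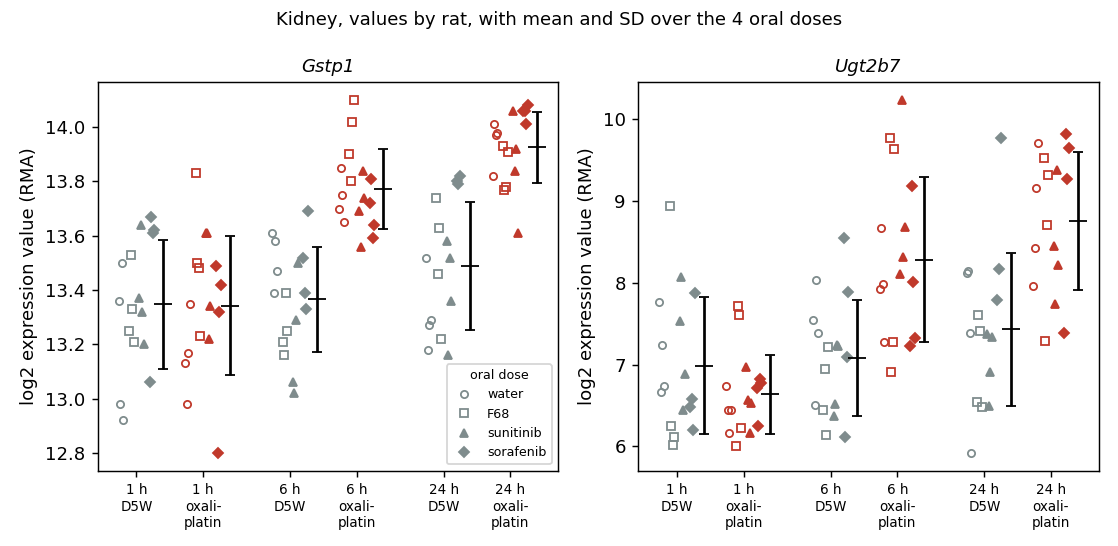
Kidney log2 signal of Gstp1 and Ugt2b7 in each rat at 1, 6 and 24 h after D5W or oxaliplatin, with the oral dose as the marker and the mean ± SD over all 4 oral doses in black. Among vehicle-dosed rats the Gstp1 groups separated at 6 and 24 h, and the Ugt2b7 groups shifted by 1.15 and 1.56 with overlap.

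Other glucuronosyltransferases moved less. With all 4 oral doses averaged (16 against 16 at 6 h), a comparison chosen after seeing the data, kidney Ugt2b35 was higher after oxaliplatin by 0.36 at 6 h (adjusted p = 0.00821) and 0.40 at 24 h (adjusted p = 0.00879). The shared Ugt1a probe sets gave 1 oxaliplatin call, in kidney at 24 h (0.21 ± 0.06, adjusted p = 0.0308). Shared probe sets were tested in a separate limma fit over all probe sets without the filter. In liver Ugt2b10 was lower at 6 h. Its lowest, median and highest levels were 11.18, 11.60 and 11.84 after oxaliplatin and 11.61, 11.99 and 12.25 after D5W. The low oxaliplatin rats lay under the whole D5W range and the others in its lower part. The difference was -0.35 ± 0.10 (adjusted p = 0.0198). With the beta-actin 3′ minus 5′ difference as a covariate it was -0.30 (adjusted p = 0.059), and the call was also lost without oxaliplatin then water replicate 1 (adjusted p = 0.0887), oxaliplatin then F68 replicate 3 or D5W then water replicate 4 (0.066 each). In drug-dosed rats the 6 h difference was -0.12 (adjusted p = 0.542), and at 24 h oxaliplatin rats were higher by 0.38 ± 0.11 (adjusted p = 0.00919). The 7 D5W rats of that value include the 3 of the 24 h sorafenib group described further on, and vehicle rats differed by 0.18 at 24 h (adjusted p = 0.302).

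Liver Ugt2b differed between rats far more than between treatments. On its brighter probe set 22 of 95 liver arrays read 4.58 to 6.45, 72 read 13.05 to 13.69, and 1 lay between at 11.25. The same 22 arrays were low on the dimmer probe set, where 23 arrays read at most 5.84 and 72 read 8.99 to 11.35. The array between was a 1 h oxaliplatin then sorafenib rat, and it read 5.84 on the dimmer probe set. Low rats occurred in 16 of 24 groups, at most 3 to a group, and in 0 groups were all rats low. They made up 8 of 47 D5W rats and 14 of 48 oxaliplatin rats, and 9 of 32, 9 of 32 and 4 of 31 rats at 1, 6 and 24 h. The within-group SD was 3.24, at percentile 100 of all liver genes. At this spread no treatment difference was detectable for Ugt2b, whose oxaliplatin difference at 1 h was -1.18 with an interval of -4.33 to 1.97 (adjusted p = 0.82). The liver transcript of albumin (Alb) lay between 15.18 and 15.26 in these groups.

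**Figure D3:**
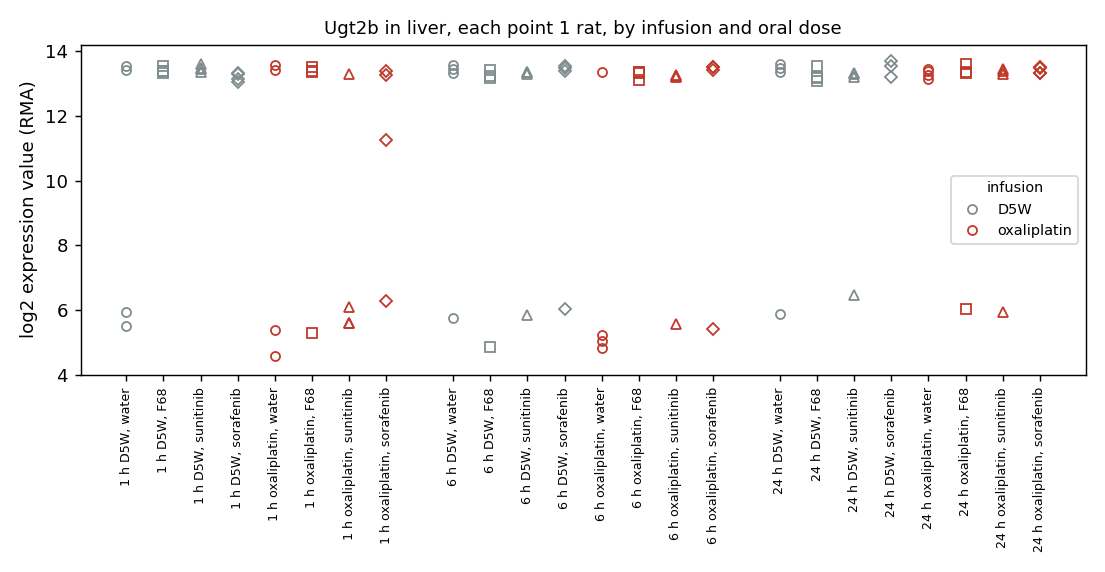
Log2 signal of liver Ugt2b on its brighter probe set in every rat (points) of the 24 groups. The 22 low rats, at 4.58 to 6.45, are spread over 16 groups, and the others but 1 lie at 13.05 to 13.69.

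Sult1a1, which sulfates phenols and catecholamines, had the largest oxaliplatin difference among heart members. Its means in vehicle-dosed rats at 1, 6 and 24 h were 9.83, 10.22 and 9.60 after oxaliplatin. After D5W they were 9.24, 9.74 and 8.45, so that the 24 h difference goes with low D5W levels at that time. At 24 h its lowest, median and highest levels were 8.90, 9.60 and 10.37 in the 8 vehicle-dosed oxaliplatin rats and 7.82, 8.47 and 9.08 in the D5W rats. Only the lowest oxaliplatin rats fell inside the D5W range. The difference was 1.15 ± 0.21 (2.23-fold, adjusted p = 3.15e-05), with 1.09 in water rats (adjusted p = 0.005) and 1.22 in F68 rats (adjusted p = 0.0529). In drug-dosed rats it was 0.53 (adjusted p = 0.332), and their D5W rats stood higher (8.48, 9.58 and 10.39, against 9.50, 10.24 and 10.96 after oxaliplatin).

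Heart Sult1a1 was also higher after sorafenib. At 24 h the rats given D5W then sorafenib read 10.39, 9.71, 10.21 and 10.27, and those given D5W then F68 read 8.64, 8.30, 7.82 and 8.73. Every sorafenib rat lay above every F68 rat. The difference was 1.77 ± 0.30 (3.42-fold, adjusted p = 3.05e-05). The F68 rats here are also controls of the oxaliplatin comparison. At 6 h the sorafenib rats read 10.76, 10.52, 10.24 and 10.99 and the F68 rats 9.95, 9.90, 9.04 and 9.62, again apart, with a difference of 1.00 ± 0.30 (adjusted p = 0.00568). After oxaliplatin the sorafenib difference at 24 h was 0.80 ± 0.30 (adjusted p = 0.179), and the change of the drug effect with oxaliplatin was -0.97 ± 0.43 (adjusted p = 1). The macrophage marker list (8 of 8 markers measured) stood at 7.56 in the 24 h sorafenib group and 7.18 in the oxaliplatin then sorafenib group, against 8.35 to 8.62 in the other 24 h heart groups. Its part in the result was not tested.

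**Figure D4:**
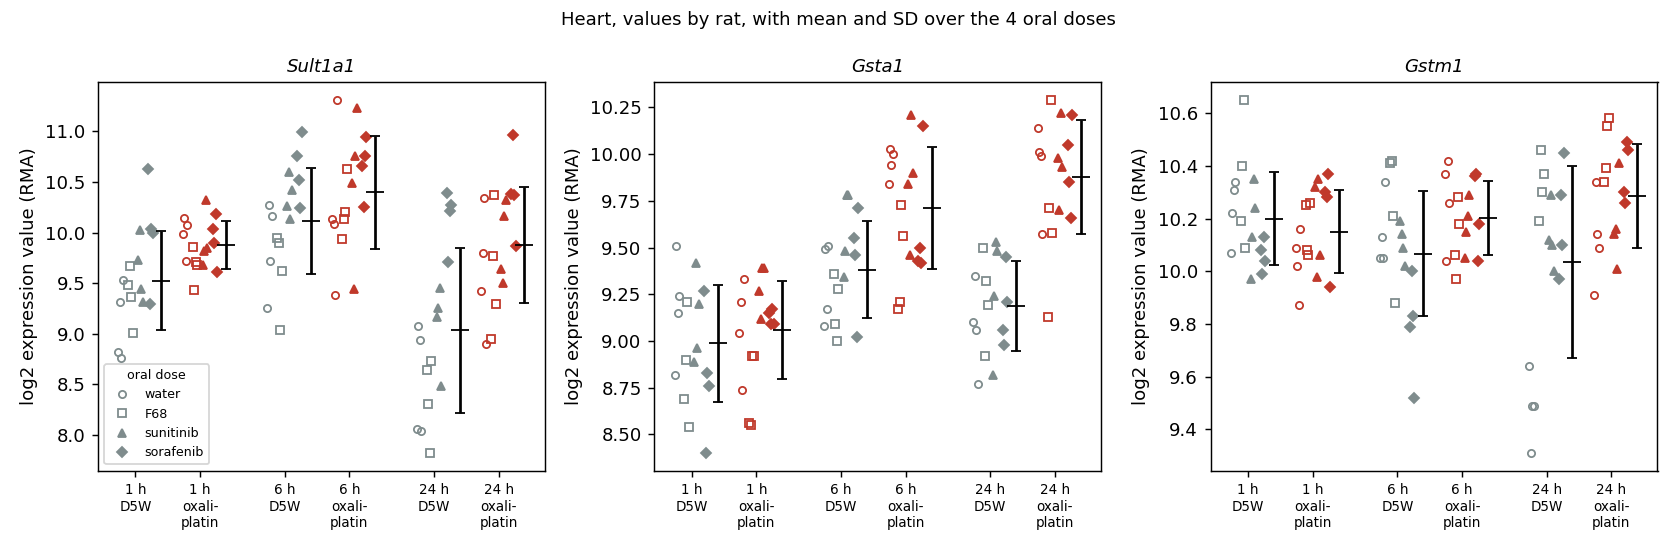
Heart log2 signal of Sult1a1, Gsta1 and Gstm1 in each rat at 1, 6 and 24 h after D5W or oxaliplatin, with the oral dose as the marker and the mean ± SD over all 4 oral doses in black. At 24 h the vehicle-dosed oxaliplatin rats were higher by 1.15 (Sult1a1), 0.65 (Gsta1) and 0.39 (Gstm1).

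Liver Sult2b1, which sulfates cholesterol and other hydroxysteroids, followed the oral vehicle or dosing day at 6 h. The D5W then F68 rats read 7.51, 8.48, 7.95 and 8.25 and the D5W then water rats 7.07, 6.64, 6.98 and 7.06. All F68 rats lay above all water rats. The difference was 1.11 ± 0.24 (2.16-fold, adjusted p = 0.0129), the 1 call among 36 liver members at 6 h against a background of 0.396%. It was lost without D5W then F68 replicate 2 (adjusted p = 0.0582) or 4 (0.0514) or D5W then water replicate 2 (0.0853).

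The same split held over both infusions at 6 h. The 16 rats given F68 or sorafenib had a lowest level of 7.13, a median of 7.97 and a highest of 8.48, and the 16 given water or sunitinib 6.26, 6.87 and 7.07, so that the sets did not overlap. At 24 h they overlapped (5.97, 6.41 and 7.59 against 5.99, 6.50 and 7.09), as they did at 1 h (6.29, 7.07 and 8.07 against 6.33, 6.79 and 7.49). The dimmer Sult2b1 probe set showed no such split at 6 h (6.11 to 6.55 against 6.12 to 6.55), with a difference of -0.04 ± 0.09 between F68 and water.

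**Figure D5:**
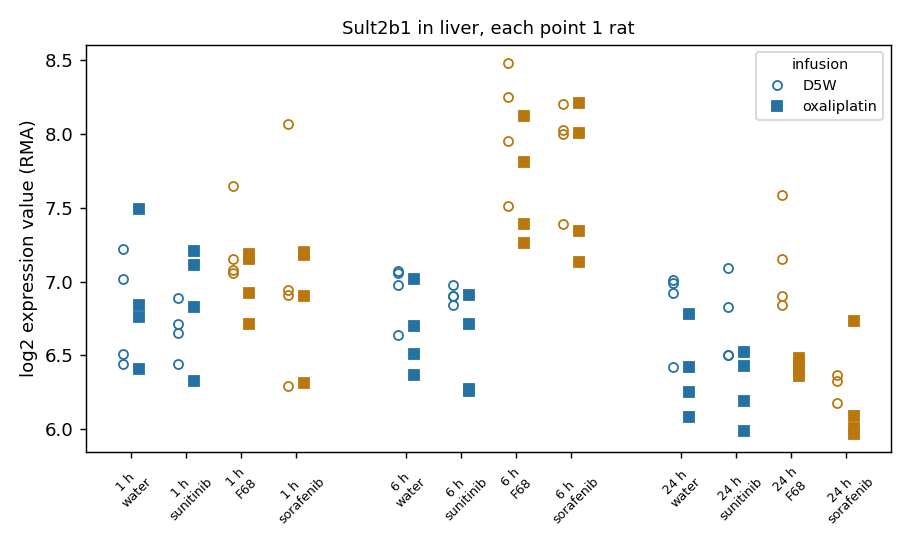
Liver log2 signal of Sult2b1 on its brighter probe set in each rat by time and oral dose, with D5W as open circles and oxaliplatin as filled squares, water and sunitinib in blue and F68 and sorafenib in orange. At 6 h the orange rats, at 7.13 to 8.48, all lie above the blue rats, at 6.26 to 7.07.

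Sult2b1 was lower after oxaliplatin in liver at 24 h, with levels of 6.08, 6.42 and 6.78 (lowest, median, highest) against 6.42, 6.95 and 7.59 after D5W. The middle of the oxaliplatin range sat at the lowest D5W rat. The difference was -0.57 ± 0.17 (adjusted p = 0.0298), and the dimmer probe set gave -0.05 ± 0.06 (adjusted p = 0.75). In the limma fit over probe sets that gave the latter, the brighter probe set had an adjusted p of 0.0472. Each of 7 single arrays took the call away when left out (adjusted p up to 0.0761). In drug-dosed rats it was -0.27 (adjusted p = 0.284).

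Sult1c2, a kidney-rich sulfotransferase, was slightly lower in kidney at 24 h. The vehicle-dosed oxaliplatin rats read 12.37, 12.56 and 12.70 (lowest, median, highest) and the D5W rats 12.46, 12.76 and 12.93. The difference was -0.20 ± 0.07 (adjusted p = 0.0441), a call lost without any of 12 single arrays (adjusted p up to 0.121). In drug-dosed rats the oxaliplatin levels lay wholly under the D5W levels (12.31 to 12.44 against 12.45 to 12.85), with a difference of -0.21 (adjusted p = 0.0696). The probe set that Sult1c2 shares with another gene gave -0.37 ± 0.11 (adjusted p = 0.0336).

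Gstp1, the pi-class transferase and a known marker of chemically altered rat liver, was called higher after oxaliplatin in all 3 tissues at 1 or more times. In heart there was little difference in F68 rats alone or in drug-dosed rats, as given further on. In kidney at 24 h its levels were 13.77, 13.92 and 14.01 (lowest, median, highest) after oxaliplatin and 13.18, 13.37 and 13.74 after D5W. Every vehicle-dosed oxaliplatin rat exceeded every vehicle-dosed D5W rat. The difference was 0.48 ± 0.09 (1.40-fold, adjusted p = 6.96e-05). At 6 h the levels were 13.65, 13.82 and 14.10 against 13.16, 13.39 and 13.61, again without overlap, and the difference was 0.46 ± 0.09 (1.38-fold, adjusted p = 3.06e-05). At 1 h the medians were both 13.29, with a difference of 0.07 ± 0.09 (adjusted p = 0.734). Drug-dosed rats gave 0.35 ± 0.09 at both later times (adjusted p = 0.00158 at 6 h, and 0.0135 at 24 h with 7 D5W rats). Within single vehicles the 6 h difference was 0.22 with water (adjusted p = 0.287) and 0.70 with F68 (adjusted p = 3.13e-05), and at 24 h 0.63 with water (adjusted p = 0.000647) and 0.34 with F68 (adjusted p = 0.156). In the 6 h oxaliplatin groups the kidney marker list averaged 12.65 to 12.78, against 12.84 to 12.91 after D5W, and its part in these results was not tested.

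In liver at 6 h Gstp1 was at 10.34, 10.62 and 10.94 after oxaliplatin and 10.15, 10.28 and 10.51 after D5W. Most oxaliplatin rats lay above the D5W range. The difference was 0.29 ± 0.07 (1.23-fold, adjusted p = 0.00366), and in drug-dosed rats it was 0.40 ± 0.07 (adjusted p = 7.58e-05) with no overlap. At 24 h it was 0.13 ± 0.07 in vehicle rats (adjusted p = 0.283) and 0.40 ± 0.08 in drug-dosed rats (adjusted p = 0.000101). The 7 D5W rats behind that last value include the 3 of the sorafenib group described further on.

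In heart at 24 h Gstp1 was higher by 0.30 ± 0.08 (adjusted p = 0.00216). The difference in F68 rats alone was 0.07 (adjusted p = 0.884), and in drug-dosed rats 0.06 (adjusted p = 0.901). Gsta1, an alpha-class transferase that also reduces lipid peroxides, was steadier. Its levels were 9.13, 9.85 and 10.29 after oxaliplatin and 8.77, 9.15 and 9.50 after D5W, with all but 1 oxaliplatin rat above the D5W range. The difference was 0.65 ± 0.13 (1.57-fold, adjusted p = 8e-05), and 0.73 ± 0.13 in drug-dosed rats (adjusted p = 0.000531), where every oxaliplatin rat (9.66 to 10.22) exceeded every D5W rat (8.82 to 9.53). In F68 rats alone it was 0.45 (adjusted p = 0.296).

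Of the 7 mu-class genes tested in heart, 3 rose at 24 h, by smaller amounts. Gstm1 levels were 9.91, 10.34 and 10.58 after oxaliplatin and 9.31, 9.92 and 10.46 after D5W. The low end of the D5W range was the water group (9.64, 9.31, 9.49 and 9.49), while the F68 rats (10.19, 10.46, 10.30 and 10.37) lay among the oxaliplatin rats. The difference was 0.39 ± 0.08 (adjusted p = 9.62e-05), with 0.64 in water rats (adjusted p = 4e-06) and 0.14 in F68 rats (adjusted p = 0.698). Gstm2 rose by 0.32 ± 0.09 (adjusted p = 0.0099) and Gstm7 by 0.20 (adjusted p = 0.0177). With the beta-actin difference as a covariate these were 0.14 (adjusted p = 0.349) and 0.15 (adjusted p = 0.159), and Gstm7 was also lost without oxaliplatin then F68 replicate 3 (adjusted p = 0.0814) or oxaliplatin then water replicate 4 (0.0618). The theta-class Gstt2 rose by 0.25 (adjusted p = 0.0457) and the kappa-class Gstk1 by 0.15 (adjusted p = 0.0387), and those calls were lost without any of 12 and 8 single arrays (adjusted p up to 0.161 and 0.104).

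In water rats alone limma gave 6 heart calls, of which 5 were among these 8 and the other was Gstm4 (0.30, adjusted p = 0.0252), against 22.1% of all genes. In F68 rats alone limma gave 0, against 0.230%, with 3 members at an unadjusted p under 0.05. The D5W then water group is the one that stood apart in the beta-actin difference, and its part in the result was not tested. The liver marker list in these heart samples stood at 7.34 in D5W then F68 and 6.90 in D5W then water, against 6.17 to 6.77 in the 24 h oxaliplatin groups. The erythroid list was at 9.77 to 9.85 after D5W and 9.36 to 9.47 after oxaliplatin. Their part in the result was not tested.

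In kidney Gsto2, an omega-class transferase that recycles vitamin C, rose at 24 h. Its range was 7.06 to 7.68 after oxaliplatin and 6.83 to 7.33 after D5W, and the difference was 0.28 ± 0.08 (adjusted p = 0.018). That call was lost without oxaliplatin then F68 replicate 1 (adjusted p = 0.0612) or D5W then water replicate 3 (0.0546) or 4 (0.0535).

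The mu-class genes of kidney varied widely between rats of a group. Gstm1 ran from 8.76 to 12.90 over 95 kidney arrays, a 17.6-fold range about a median of 10.43, with a within-group SD of 0.90. Of the 10 kidney arrays with the most Gstm1, 8 were also among the 10 highest for Gstm4 and 7 for Gstm7, but 1 for Gstm2, 1 for Gstm3 and 3 for Gstm5. These genes are related copies, and whether their probes share signal was not tested. Members had a median within-group SD of 0.15 (heart), 0.20 (kidney) and 0.22 (liver), where all genes had 0.11, 0.13 and 0.14. Besides Ugt2b the widest in liver were Sult2a6 (1.04, with levels from 7.45 to 11.92), Sult1c2 (0.80) and Gsta3 (0.76).

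Sorafenib after D5W at 24 h left 26 of 36 liver members uncalled. The 10 called were 8 lower and 2 higher, where 67.3% of all liver genes were called, 48.2% lower and 19.1% higher. The median difference was -0.06 over members and -0.24 over all genes, and these 3 rats also had raised low signals (10th percentile of log2 values 4.86, against 4.60 to 4.73 in the other liver groups). Gstp1 read 9.54, 9.43 and 9.37 in the sorafenib rats and 10.03, 10.12, 10.34 and 10.05 in the F68 rats, wholly apart. The difference was -0.69 ± 0.11 (adjusted p = 1.46e-07). Sult1c2 read 6.63, 8.15 and 6.98 against 8.34, 8.98, 8.30 and 9.19, also apart. Its difference was -1.45 ± 0.60 (adjusted p = 0.0283), lost without sorafenib replicate 2 (adjusted p = 0.138) or 4 (0.0841) or F68 replicate 2 (0.0581) or 4 (0.0715).

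Sult2b1 read 6.37, 6.18 and 6.33 after sorafenib and 6.90, 7.59, 7.15 and 6.84 after F68. The sets were apart, with a difference of -0.83 ± 0.26 (adjusted p = 0.00435), but the dimmer probe set moved the other way (0.40 ± 0.10, adjusted p = 0.000325). Gstt1 (-0.46), Ugt2b10 (-0.45), Gsto1 (-0.33), Gsta4 (-0.23) and Sult1c3 (-0.18) were also lower, and Gstm2 (0.58) and Ugt2b7 (0.32) higher. Each of these 7 calls was lost without at least 1 of the 7 arrays compared: sorafenib replicate 2 (Gstt1, Ugt2b10 and Gsta4, adjusted p 0.0663, 0.0633 and 0.235), replicate 3 (Ugt2b10, Gstm2, Ugt2b7 and Sult1c3, adjusted p 0.0813, 0.217, 0.0897 and 0.0532) or replicate 4 (Sult1c3, 0.261), or an F68 array (Gsto1 without replicate 3, 0.074, and also Gsta4, Gstm2 and Sult1c3, adjusted p 0.0717 to 0.146). With array weights 1 of the 10 calls was made, and after a further quantile normalisation 6 were. In rats infused with oxaliplatin, limma called 0 of 36 liver members at 24 h for sorafenib (background 1.38%, 1 at an unadjusted p under 0.05), and Gstp1 differed by -0.15 (adjusted p = 0.415). The change of the sorafenib effect with oxaliplatin was itself called for 2 members, Gstp1 (0.54 ± 0.15, adjusted p = 0.00368) and Gstt1 (0.54 ± 0.23, adjusted p = 0.0484), with a background of 38.2%. The macrophage list in liver stood at 9.61 in the D5W then sorafenib group and 10.39 in D5W then F68, and its part in the result was not tested.

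In heart sorafenib after D5W gave 2, 7 and 1 member calls at 1, 6 and 24 h, against 12.2%, 41.9% and 7.05% of all genes. Apart from Sult1a1, the 6 h calls were all lower. Gstm2 read 9.80, 10.08, 9.38 and 9.35 after sorafenib and 10.29, 10.79, 10.07 and 10.43 after F68, with all but 1 sorafenib rat under the F68 range. The difference was -0.74 ± 0.13 (adjusted p = 4.72e-06). Gstm1 read 9.79, 10.00, 9.83 and 9.52 against 10.41, 10.42, 10.21 and 9.88, with a difference of -0.45 (adjusted p = 0.000668). With the beta-actin difference as a covariate these became -0.26 (adjusted p = 0.264) and -0.27 (adjusted p = 0.192). Gstm7 (-0.37), Sult5a1 (-0.25), Gstm4 (-0.24) and Gstm6l (-0.23) were lower too, of which Gstm4 was lost without any of 4 single arrays (adjusted p up to 0.174) and Sult5a1 without sorafenib replicate 3 (0.0637). At 1 h Gstk1 was lower (-0.23, adjusted p = 0.0411) and Sult2b1 higher by 0.28 (adjusted p = 0.0353). These calls were lost without any of 6 and 4 single arrays, respectively (adjusted p up to 0.227 and 0.296). Heart Sult2b1 exceeded 6 on 4 of 96 arrays, the least the filter allows. The highest sorafenib rat read 6.05, so that the gene was tested in part through the group called higher. Both group means (5.89 and 5.61) lay under 6.

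Kidney members did not pass the test for either oral drug or for F68. For sorafenib after D5W, limma called 0 of 27 at each time, against 0%, 0.0731% and 0.203% of all genes, with 1, 1 and 9 at an unadjusted p under 0.05. Sunitinib after D5W gave 0 against 0.0244%, 0% and 0%, with 2, 2 and 1 at an unadjusted p under 0.05. After oxaliplatin the limma counts were 0 for sunitinib (0.244%, 0% and 0% of all genes, with 6, 0 and 0 members at an unadjusted p under 0.05) and 0 for sorafenib (0.00812%, 0.544% and 0%, with 1, 2 and 3). In that sunitinib comparison at 1 h the median over all genes was 0.11, and all 30 genes called were higher. With arrays shifted to the tissue median it was -0.01, and 0 genes were called. F68 against water gave 0 by limma against 3.90%, 3.93% and 0.00812%, with 2, 3 and 2 at an unadjusted p under 0.05.

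In liver, limma called 0 of 36 members for sunitinib after D5W (0%, 0% and 0.964% of all genes, with 3, 1 and 9 members at an unadjusted p under 0.05) and 0 after oxaliplatin (0% at each time, with 0, 0 and 4). Sorafenib at 1 and 6 h gave 0 by limma against 0.0689% and 0.0344%, with 2 and 2 at an unadjusted p under 0.05. After oxaliplatin these were 0 against 0.189% and 0.207%, with 4 and 4. F68 against water gave 0 by limma at 1 and 24 h (0.198% and 0%, with 3 and 4 at an unadjusted p under 0.05).

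In heart the 24 h sunitinib and F68 calls shared 1 control group. Sunitinib after D5W gave 0, 0 and 3 calls of 20 by limma, against 10.0%, 0% and 25.4% of all genes, with 2, 0 and 5 at an unadjusted p under 0.05. At 24 h Gstm1 was higher by 0.65 (adjusted p = 2.63e-06), Gstp1 by 0.45 (adjusted p = 0.00067) and Gstm4 by 0.27 (adjusted p = 0.0441, up to 0.181 without any of 5 single arrays). F68 against water gave 1, 0 and 2 calls by limma, against 11.6%, 0.0177% and 16.8%, with 1, 2 and 5 at an unadjusted p under 0.05. At 24 h these were Gstm1 (0.85, adjusted p = 3.15e-09) and Gstp1 (0.48, adjusted p = 0.000407), and at 1 h Gstm7 (0.27, adjusted p = 0.0434, up to 0.161 without any of 6 single arrays). Both 24 h comparisons share the D5W then water group as control, the group that stood apart in the beta-actin difference. Its 4 Gstm1 levels, at 9.31 to 9.64, lay below all other 24 h heart rats, the lowest of which was at 9.91.

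After oxaliplatin, limma gave sunitinib 0 heart calls at each time (0%, 0.00884% and 0% of all genes, with 1, 0 and 0 members at an unadjusted p under 0.05). For sorafenib it gave 0, 1 and 0 (2.15%, 7.57% and 1.72%, with 1, 3 and 1), the call being Gstm6l at 6 h (-0.23, adjusted p = 0.0308, up to 0.172 without any of 4 single arrays). The shared Ugt1a probe sets gave 1 call here, lower with sorafenib at 24 h (-0.62 ± 0.14, adjusted p = 0.00917). The change of a drug effect with oxaliplatin was called for Gstm5 with sunitinib at 1 h (0.76, background 6.56%), for Gstm1 (0.56) and Gstm7 (0.36) with sorafenib at 6 h (17.1%), and for Gstm1 and Gstp1 (-0.59 each) with sunitinib at 24 h (14.4%).

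The vehicle rats themselves changed between times. In heart 8 of 20 members differed between 6 and 1 h (background 36.8%), led by Gstt3 (0.50) and Gstm5 (-0.34), with Gsta4 at -0.25, Sult4a1 at 0.19 and Gstk1, Gstm3, Sult2b1 and Sult5a1 by less. All of these but Gstk1 were lost without 1 to 8 single arrays each (adjusted p up to 0.163), Gstt3 without 1 h D5W then F68 replicate 2 (0.0536) or 4 (0.0516). Gstm3 and Sult2b1 read at most 5.93 and 6 in the rats compared, so that they were tested through arrays of other groups. Between 24 and 1 h 6 heart members differed (49.2%), all lower: Sult1a1 (-0.79), Gstm1 (-0.38), Gstm2 (-0.35), Gstk1 (-0.32), Gstm7 (-0.2) and Gstt1 (-0.14). In kidney 0 of 27 were called by limma at 6 against 1 h (1.98%, with 2 at an unadjusted p under 0.05) and 1 at 24 against 1 h (3.40%), Gsto1 (0.25, adjusted p = 0.0499). In liver 2 of 36 differed at 6 against 1 h (11.3%), Gstp1 (0.30, with 10.15 to 10.51 against 9.84 to 10.16, adjusted p = 0.00359) and Sult1b1 (-0.26, adjusted p = 0.0177, lost without 6 h D5W then water replicate 3 at 0.0691 or D5W then F68 replicate 4 at 0.0555). At 24 against 1 h limma called 0 (2.03%, with 8 at an unadjusted p under 0.05).

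Genes that supply, regulate or work beside these enzymes were counted from set lists. Of 9 measured Nrf2 targets in kidney, oxaliplatin raised 2 at 1 h, 6 at 6 h and 3 at 24 h and lowered 0, 1 and 1. Over all kidney genes 4.45%, 12.7% and 5.61% were higher and 4.96%, 7.88% and 2.19% lower. The list medians were 0.02, 0.32 and 0.03, against -0.02, 0.01 and 0.01 over all genes. At 6 h the quinone reductase Nqo1 was higher by 1.63 ± 0.19 (adjusted p = 2.61e-10), the heme oxygenase Hmox1 by 1.53 ± 0.20, the sulfiredoxin Srxn1 by 1.40 ± 0.23 and the thioredoxin reductase Txnrd1 by 0.60 ± 0.05, while Gclc, which catalyses the first step of glutathione synthesis, was lower (-0.22). At 24 h Nqo1 (0.74) and the epoxide hydrolase Ephx1 (0.47) were still higher. Of 9 regulators, 1 rose at 1 h and 2 at 6 h, namely Nfe2l2, which encodes Nrf2 (0.43 and 0.35), and its partner Keap1 (0.29 at 6 h), shares to be read against the same percentages. Of 12 genes of conjugate export and breakdown, 0, 2 and 2 were higher and 2, 2 and 0 lower at 1, 6 and 24 h. The exporter Abcc2 was higher by 0.89 at 6 h and 0.63 at 24 h and Abcc3 by 0.29 at 24 h. The exporter Abcc1 was lower at 1 h (-0.20) and 6 h (-0.31), as were Abcc4 at 1 h (-0.20) and the sulfatase Arsb at 6 h (-0.33).

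In heart at 24 h oxaliplatin raised Nqo1 (0.46), Ephx1 (0.39), the microsomal transferase Mgst1 (0.36) and the glutathione synthetase Gss (0.26), and lowered the exporter Abcc1 (-0.31). Each of the 7 lists had 2 genes higher there, of 4 to 11 measured, where 14.5% of all heart genes were higher and 4.75% lower. In liver at 6 h Nnmt (0.65), Bpnt1 (0.24) and the Nrf2 targets Srxn1 (0.54) and Txnrd1 (0.23) were higher, and Hpgds was lower (-0.49). Over all liver genes 6.72% were higher there and 3.67% lower. In liver at 24 h the CAR gene Nr1i3 (1.05), Ahr (0.47), Cyp1a2 (0.41) and Rxra (0.29) were higher. Nfe2l2 (-0.46) and the malic enzyme Me1 (-1.0) were lower, where 1.73% of all liver genes were higher and 4.69% lower. With sorafenib in liver at 24 h, 7 of 9 cosubstrate genes were lower (list median -0.41, against -0.24 over all genes), among them Gclc (-0.78), the PAP phosphatase Bpnt1 (-0.60), the PAPS synthase Papss1 (-0.44) and Gss (-0.41). Of 11 other conjugation enzymes 6 were lower, including Nat8 (-1.04), Hpgds (-0.80), Tpmt (-0.61) and Nat1 (-0.59), a share near the 48.2% of all liver genes that were lower. Cyp1a1, a known Ah receptor target, was higher with sorafenib by 1.48 after D5W and by 1.60 ± 0.27 after oxaliplatin (adjusted p = 0.000211). Of the other Ah receptor targets listed, Cyp1a2 was also higher after D5W (0.74) and Tiparp was lower (-0.82). In that D5W comparison 67.3% of all liver genes were called.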

How the data were processed

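The authors hybridised RNA from heart, kidney and liver to Affymetrix rat expression arrays and deposited RMA log2 values (3.38 to 15.3) for 31099 probe sets. The RMA version is not given in the sources used here. RMA summarises several probes, and small differences can be compressed. The deposited values do not share 1 distribution over all arrays. Array medians were 6.63 to 6.69 in heart, 6.66 to 6.78 in liver and 7.32 to 7.81 in kidney. The number of rats limits the precision. Of the probe sets, 20832 carry 1 gene symbol, 436 several and 9831 none. The brightest probe set of each gene in each tissue was used, and genes over 6 (log2) on at least 4 arrays were tested. Shared probe sets and the dimmer Sult2b1 probe set were read from fits over probe sets. Their adjusted p values are therefore not on the scale of the gene fit. RefSeq held 41 of the 42 members by Entrez ID, with 0 changed symbols.

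Groups came from the labels. A limma 3.58.1 fit (R 4.3.3) per tissue held 24 group means, with Benjamini-Hochberg adjustment over all genes and calls at an adjusted p under 0.05. Rats are separate animals. The 2 arrays whose tissue markers went against their label were left out. In each comparison reported, called members are named, at most 8 in each direction, and values by rat are given for the 3 with the largest differences. Vehicle rats at 24 against 6 h are not reported. The members and lists were chosen with earlier results of these data known. The alternatives were no filter, a filter at 7, quantile normalisation, median shifts, array weights, a beta-actin covariate, a fit per time, each vehicle alone, the dropped arrays put back and leaving out each array in turn. Among further alternatives were the mean of a gene's probe sets, every probe set on its own, and a robust limma fit with a trend. The fit was tested on simulated data.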

Additional observations from a re-analysis of the deposited data

Results flagged for a closer look

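Of 141 groups of 4 rats examined for the members named, 9 held a rat apart from the others by Dixon's criterion (the gap to the nearest rat over the range of the group), where chance gives about 1 in 20. Gstt3 in heart at 1 h had such a high rat in both D5W vehicle groups, at 7.30 against 6.59 for the nearest with water (ratio 0.872) and at 7.40 against 6.50 with F68 (0.83). Liver Ugt2b10 gave 3 of the 9. At 6 h a rat given oxaliplatin then water was low (11.24 against 11.74, 0.832), as was a rat given oxaliplatin then F68 (11.18 against 11.58, 0.943), and at 24 h a D5W then F68 rat was high (12.06 against 11.81, 0.839). Other single rats apart were Gstk1 in heart at 1 h with D5W then sorafenib (10.72 against 10.78, 0.885), Gstm3 in heart at 6 h with D5W then water (5.90 against 5.81, 0.853), Sult1c2 in kidney at 24 h with D5W then water (12.93 against 12.78, 0.83) and Sult2b1 in liver at 24 h with D5W then water (6.42 against 6.92, 0.843).

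The effect of an oral drug differed between the infusions for 7 results by the limma interaction test. In heart these were Gstm5 with sunitinib at 1 h (0.76 ± 0.24, adjusted p = 0.0424), Gstm1 with sorafenib at 6 h (0.56 ± 0.15, adjusted p = 0.00569), Gstm7 with sorafenib at 6 h (0.36 ± 0.13, adjusted p = 0.0401), and with sunitinib at 24 h Gstm1 (-0.59 ± 0.15, adjusted p = 0.00495) and Gstp1 (-0.59 ± 0.15, adjusted p = 0.00349). The 6 h heart values rest on the D5W then sorafenib group, whose beta-actin 3′ minus 5′ difference was 0.684, against 0.24 to 0.469 in 22 other heart groups, and its part was not tested. The 24 h heart values rest on the D5W then water group that stood apart in the beta-actin difference, whose part was not tested. In liver they were Gstp1 (0.54 ± 0.15, adjusted p = 0.00368) and Gstt1 (0.54 ± 0.23, adjusted p = 0.0484) with sorafenib at 24 h.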

How the results depend on the processing

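Of 633 retests of the 55 named differences under other settings, 504 kept direction and side of the threshold, 126 lost the call and 3 reversed. Some of these retests nearly repeat the main fit. With every probe set tested on its own, each gene was still read on its brightest one, and all 55 were kept. With probe sets averaged 52 of 53 were kept, and 4 members have more than 1 probe set. The reversals were all liver differences with sorafenib at 24 h: Gsta4 (0.06 after quantile normalisation), and Gstm2 (-0.28) and Gstp1 (0.27) with the dropped arrays put back, which mixes in the other tissue. Leaving out 1 array kept 5116 of 5258 and reversed 0. Every array of the tissue was left out in turn, and most belonged to neither group compared. Most of these retests could therefore change little, and the share kept is not a measure of stability. The cause of the changes in counts was not tested.

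Counts of oxaliplatin calls over the 3 times were 8 in heart, 6 in kidney and 3 in liver. They became 0, 2 and 0 with F68 alone, 1 in kidney and 1 in liver with water alone, 5 in heart with the beta-actin covariate, 12 in kidney with array weights, 5 in liver with a fit for each time, and 3 (kidney) and 0 (liver) with the dropped arrays back. In settings chosen after seeing the data they were 13 (kidney) and 10 (liver) with all 4 oral doses averaged, and 4 (heart) and 5 (liver) with the drug-dosed rats alone. Leaving out 1 array gave 5 to 9 in heart (5 without 24 h oxaliplatin then water replicate 4), 4 to 9 in kidney and 2 to 4 in liver.

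Sorafenib counts were 10 in heart (22 without the filter, 4 with the covariate, 8 to 11 leaving out 1 array), 0 in kidney (9 with the dropped arrays back, 0 to 0) and 10 in liver (6 quantile-normalised, 1 with array weights, 16 with the dropped arrays back, 6 to 10, the lowest without 24 h D5W then sorafenib replicate 2). After oxaliplatin the 1 call became 5 without the filter and 0 quantile-normalised, with array weights, with the filter at 7 and with a fit for each time (0 to 1). Sunitinib gave 2 to 4, after oxaliplatin 0 to 2, and F68 3 to 5. At 6 against 1 h the 8 heart calls became 14 (no filter), 4 (quantile), 4 (shifted to the median), 5 (filter at 7) and 3 (covariate), range 4 to 9, the 2 liver calls 6 (weights), 4 (filter at 7), 5 (covariate) and 0 (arrays back), range 1 to 5, and kidney 0 to 0. A fit for each time gives no such value. The 7 changes of drug effect became 3 (covariate) and 14 (arrays back), range 6 to 8.

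With sorafenib in liver at 24 h the median of all genes was -0.24, -0.12 without the filter and -0.05 after quantile normalisation. No paired analysis was possible because the labels give no replicate numbers. Signals near the filter, such as liver Ugt2b7 and Sult2b1, have little room to fall. Heart Sult2b1, Gstm3 and Sult4a1 passed it with mean levels under 6 (5.72, 5.70 and 5.88).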
